A study of Mus musculus with 6 samples.

Results

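Bone morphogenetic proteins (BMPs) and the related growth and differentiation factors (GDFs) are secreted ligands, and a set of secreted antagonists binds them outside the cell. The genes described here are the ligands Bmp4, Bmp5, Bmp6, Gdf3 and Gdf10 and the antagonists Nog, Grem1 and Chrdl1. They were chosen by name, all 8 were found among the 12830 genes of the deposited table, and they had been picked with their difference between the groups known. Their differences are therefore given as a description, and the calls printed for them support nothing. BMP ligands bind pairs of type I and type II receptor kinases, which phosphorylate SMAD transcription factors and so switch on target genes such as the Id genes. Noggin, gremlin and the chordin-like proteins hold the ligands away from the receptors. In marrow stroma these signals are known for driving osteoblast formation, and BMP signals induce several of their own antagonists as feedback.

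The RNA came from primary BMSCs, bone marrow stromal cells, the adherent cells of marrow that can form osteoblasts and adipocytes, after 2 days under osteogenic induction. FF denotes 3 libraries of cells from Rras2f/f mice, in which the Rras2 gene is floxed and intact, and cKO denotes 3 libraries of cells from Prx1;Rras2f/f mice. All mice were 8 weeks old, and both groups carried the floxed alleles. The Prx1 promoter is active in limb mesenchyme, and not in blood cells. Rras2 encodes the R-Ras related GTPase TC21, which relays growth factor signals. Whether the 3 libraries of each group stem from different mice is not stated in the labels, and the SDs and p-values thus cover the spread between samples, possibly only technical spread.

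Counts summed over the listed genes were 31934714 to 37561452 per library. Rras2 had 44.7 to 50.1 CPM (counts scaled by library size, here with TMM factors) in FF and 26.6 to 29.0 CPM in cKO, with no overlap. Stromal markers were present in every library, with 8 of 8 measured and a summed FPKM (the authors' length-scaled unit) of 3766 to 3787 in FF and 3348 to 3607 in cKO. Within that list Cxcl12 and Lepr were called higher and Col1a1 and Col1a2 lower. Macrophage markers were abundant, with 9 of 9 measured and a summed FPKM of 13152 to 14127 in FF and 14305 to 14666 in cKO. Their median log2 fold change was 0.044, and Lyz2, the largest part of the sum, had 0.12. Of the macrophage list Tyrobp and Mrc1 were called higher and Cd14 lower. Osteoblast markers (6 of 6) summed to 1975 to 2078 FPKM in FF and 1730 to 1819 in cKO. Their median log2 fold change was -0.54, while Spp1, the largest part of the sum, had 0.17. Of the osteoblast list only Runx2 was called, and it was lower in cKO (log2 fold change -0.25). The adipocyte markers (6 of 6) summed to 685 to 734 FPKM in FF and 759 to 772 in cKO. The median log2 fold change of that list was 0.11, and Lpl, the largest part of the sum, had 0.12. Only Adipoq of that list was called, and it was higher in cKO. The plasma cell genes Jchain, Ighm and Igkc summed to 167 to 177 FPKM in FF and 276 to 318 in cKO. Chondrocyte markers (4 of 5) summed to 65.7 to 80.1 FPKM in FF and 52.0 to 61.2 in cKO, with a median log2 fold change of -0.26, and endothelial markers (5 of 6) to 9.67 to 13.95 and 8.13 to 10.5, with a median of -0.46. Osteoclast markers (6 of 6) summed to 539 to 724 FPKM in FF and 633 to 810 in cKO. Only Atp6v0d2 among them was called, and it was higher in cKO. Neutrophil markers (6 of 6) summed to 626 to 838 FPKM in FF and 565 to 765 in cKO. Muscle and pericyte markers (5 of 5) summed to 714 to 836 and 724 to 858. The median log2 fold changes of these lists were, in order, 0.25, -0.24 and -0.12. The part of all these shifts in the values below was not tested. In bulk samples, fewer cells of a type and less RNA per cell cannot be told apart.

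The 8 genes moved in both directions within each role. The ligands Bmp4 and Bmp6 and the antagonists Grem1 and Chrdl1 were higher in cKO, and the ligands Bmp5, Gdf3 and Gdf10 and the antagonist Nog were lower. The sizes ran from 1.21-fold for Bmp5 to 2.77-fold for Nog. In the edgeR quasi-likelihood test, where a gene counts as called when its adjusted p (Benjamini-Hochberg, all genes) is below 0.05, 4 of the 8 were called higher and 4 lower, beside 4.84% of all genes called (2.1% higher and 2.74% lower). The FF and cKO libraries did not overlap for any of the 8, beside 22.5% of all genes. The genes were chosen on this contrast, so nothing is read from these counts.

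The promoters of the 8 genes were looked up in RefSeq on GRCm38.p6, the assembly that mm10 names, and 5 had an entry. Entries for Nog, Gdf3 and Chrdl1 were not found. The 250 bases before the first listed start of 4 of them are shown. Of these, 2 are for genes higher in cKO and 2 for genes lower, so that their make-up can be set beside the direction. Capitals mark GGGCGG, the Sp1 box, and GGCGCC, a GC-rich element bound by SMAD1 and SMAD5, each on either strand. Bmp4 is shown from chr14:46390670-46390919 on the minus strand, Grem1 from chr2:113758649-113758898 on the minus strand, Bmp5 from chr9:75775115-75775364 on the plus strand and Gdf10 from chr14:33923337-33923586 on the plus strand.

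Bmp4: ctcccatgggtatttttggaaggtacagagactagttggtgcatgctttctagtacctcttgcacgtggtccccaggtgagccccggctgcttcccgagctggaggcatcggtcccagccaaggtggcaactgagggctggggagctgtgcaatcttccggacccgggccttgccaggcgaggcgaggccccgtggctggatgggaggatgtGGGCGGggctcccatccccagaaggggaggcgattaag

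Grem1: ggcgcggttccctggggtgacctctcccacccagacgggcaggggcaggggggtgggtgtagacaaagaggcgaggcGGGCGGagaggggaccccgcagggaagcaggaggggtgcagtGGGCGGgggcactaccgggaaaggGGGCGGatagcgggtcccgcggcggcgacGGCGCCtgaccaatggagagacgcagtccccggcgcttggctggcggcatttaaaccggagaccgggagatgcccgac

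Bmp5: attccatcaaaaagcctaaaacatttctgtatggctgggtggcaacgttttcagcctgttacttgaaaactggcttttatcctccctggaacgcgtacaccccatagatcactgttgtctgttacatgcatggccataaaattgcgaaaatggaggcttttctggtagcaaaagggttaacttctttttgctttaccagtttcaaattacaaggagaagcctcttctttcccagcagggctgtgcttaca

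Gdf10: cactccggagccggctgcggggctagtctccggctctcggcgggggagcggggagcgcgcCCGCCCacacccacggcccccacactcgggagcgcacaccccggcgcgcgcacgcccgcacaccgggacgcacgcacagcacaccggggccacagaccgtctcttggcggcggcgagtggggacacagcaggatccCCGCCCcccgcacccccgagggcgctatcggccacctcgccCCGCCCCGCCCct

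Gdf10 had the most GC-rich window, at 78.8% with 35 CpG sites, and Bmp5 the least, at 42.8% with 4 CpG sites. Both are genes that were lower in cKO. A link between base composition and direction was not tested. Bmp4 and Grem1, both higher in cKO, had 63.2% and 72.0% GC. The median over 27025 promoter windows of the same length was 52.0%. The Sp1 box was found 4 times before Gdf10, 3 times before Grem1 and once before Bmp4, and no copy lay before Bmp5. It occurred in 32.9% of all windows. GGCGCC was found before Grem1 alone among these windows, and in 9.54% of all windows. The RUNX core TGTGGT, the AP-1 site TGANTCA and the TATA box TATAAA were searched on both strands in the same way, and these letters were not in any of the 5 windows. They occurred in 14.2%, 6.87% and 13.0% of all windows. The Bmp6 window, which overlaps an annotated exon of the gene, was scanned but is not printed; it held 68.8% GC and 1 Sp1 box. A match of letters is a description and not a binding site.

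Bmp4 was the most abundant of the 8 genes per length. It encodes a ligand that induces bone and is made by marrow stroma. In mm10 the gene (ENSMUSG00000021835) spans chromosome 14, bases 46383520 to 46390669, minus strand. It had 64.8, 65.9 and 70.1 CPM in FF replicates 1, 2 and 3 and 88.7, 96.1 and 93.4 CPM in cKO replicates 1, 2 and 3. Every cKO library was above every FF library, and the lowest cKO library was 26.5% above the highest FF library. Its level in cKO was 1.38-fold that in FF, a log2 fold change of 0.47 (standard error 0.0526).

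Bmp6 differed most among the ligands that were higher. It encodes a BMP of the same subgroup as Bmp5 and is known in iron sensing as well as in bone. In mm10 the gene (ENSMUSG00000039004) spans chromosome 13, bases 38345107 to 38500302, plus strand. Its CPM was 13.1, 14.5 and 11.3 in the FF libraries and 23.7, 20.2 and 24.2 in the cKO libraries. Every cKO value lay above the FF values, with a gap of 39.4% between the nearest libraries. On the log2 scale the difference was 0.81 (standard error 0.104), which is 1.75-fold.

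Bmp5, the close relative of Bmp6, differed in the opposite direction. In mm10 the gene (ENSMUSG00000032179) spans chromosome 9, bases 75775364 to 75900310, plus strand. It had 80.01, 76.1 and 78.7 CPM in FF and 65.7, 64.3 and 63.7 CPM in cKO. The groups were tight and apart, with the highest cKO library 13.6% below the lowest FF library. At -0.28 on the log2 scale (standard error 0.0497), this was the smallest difference of the 8. Of the 4025 exon bases of Bmp5, 46.7% also lie in exons of Gm26903, an antisense gene not analysed here. How the counting treated strand is not stated, so reads of the 2 genes may not be told apart. For Bmp4 and Bmp6 the bases shared with exons of genes on the other strand were 3.96% (Gm15217) and 5.74% (Txndc5) of their own.

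Gdf3 and Gdf10 are less canonical members of the family. Gdf3 is known as an embryonic ligand that is also made by macrophages and fat tissue, and Gdf10 is the closest relative of Bmp3, a ligand that opposes bone-inducing BMPs. Gdf3, ENSMUSG00000030117, on chromosome 6 (bases 122605403 to 122610087, minus strand), had 18.5, 18.3 and 17.3 CPM in FF and 12.3, 9.77 and 11.1 CPM in cKO. All cKO libraries lay below the FF libraries, by 28.9% between the nearest of them. This was a 1.63-fold lower level in cKO, or -0.71 on the log2 scale (standard error 0.0997). Gdf10, ENSMUSG00000021943, on chromosome 14 (bases 33923587 to 33937983, plus strand), had 6.28, 8.61 and 6.42 CPM in FF and 4.82, 2.74 and 2.51 CPM in cKO. FF replicate 2 stood above the other FF libraries and cKO replicate 1 above the other cKO libraries, and the groups still did not overlap. The fitted difference was -1.08 on the log2 scale. Its standard error of 0.248 was the widest of the 8, on counts of 206 to 326 in FF and 91 to 169 in cKO. Gdf10 was not called without FF replicate 1, 2 or 3, without cKO replicate 2 or 3, or on log2(FPKM + 1).

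Nog showed the largest difference of the 8 genes. It encodes noggin, which caps the receptor-binding faces of BMP ligands and is itself induced by BMP signals. In mm10 the gene (ENSMUSG00000048616) spans chromosome 11, bases 89300638 to 89302332, minus strand. It had 6.66, 7.26 and 8.45 CPM in FF and 3.68, 2.51 and 1.87 CPM in cKO, from counts of 230 to 275 and 68 to 129. Every cKO library was at least 44.8% below the lowest FF library. The level in cKO was thus 2.77-fold lower, a difference of -1.47 on the log2 scale (standard error 0.217).

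The other antagonists differed in the opposite direction to Nog. Grem1 encodes gremlin, an antagonist of the DAN family whose expression marks a population of skeletal progenitors in marrow. In mm10 the gene (ENSMUSG00000074934) spans chromosome 2, bases 113746164 to 113758646, minus strand. It had 68.1, 62.4 and 67.1 CPM in FF and 84.6, 85.1 and 96.1 CPM in cKO. The difference was 0.43 on the log2 scale (standard error 0.0599), and the lowest cKO library was 24.2% above the highest FF library. Chrdl1 encodes chordin-like 1, which binds BMP4 among other ligands. In mm10 the gene (ENSMUSG00000031283) spans chromosome X, bases 143285674 to 143394262, minus strand. It had 72.8, 86.5 and 87.5 CPM in FF and 104.1, 117.5 and 116.9 CPM in cKO, where replicate 1 was the lowest library of each group. Its difference was 0.46 on the log2 scale (standard error 0.0753), and the nearest libraries of the groups were 19.0% apart.

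**Figure D1:**
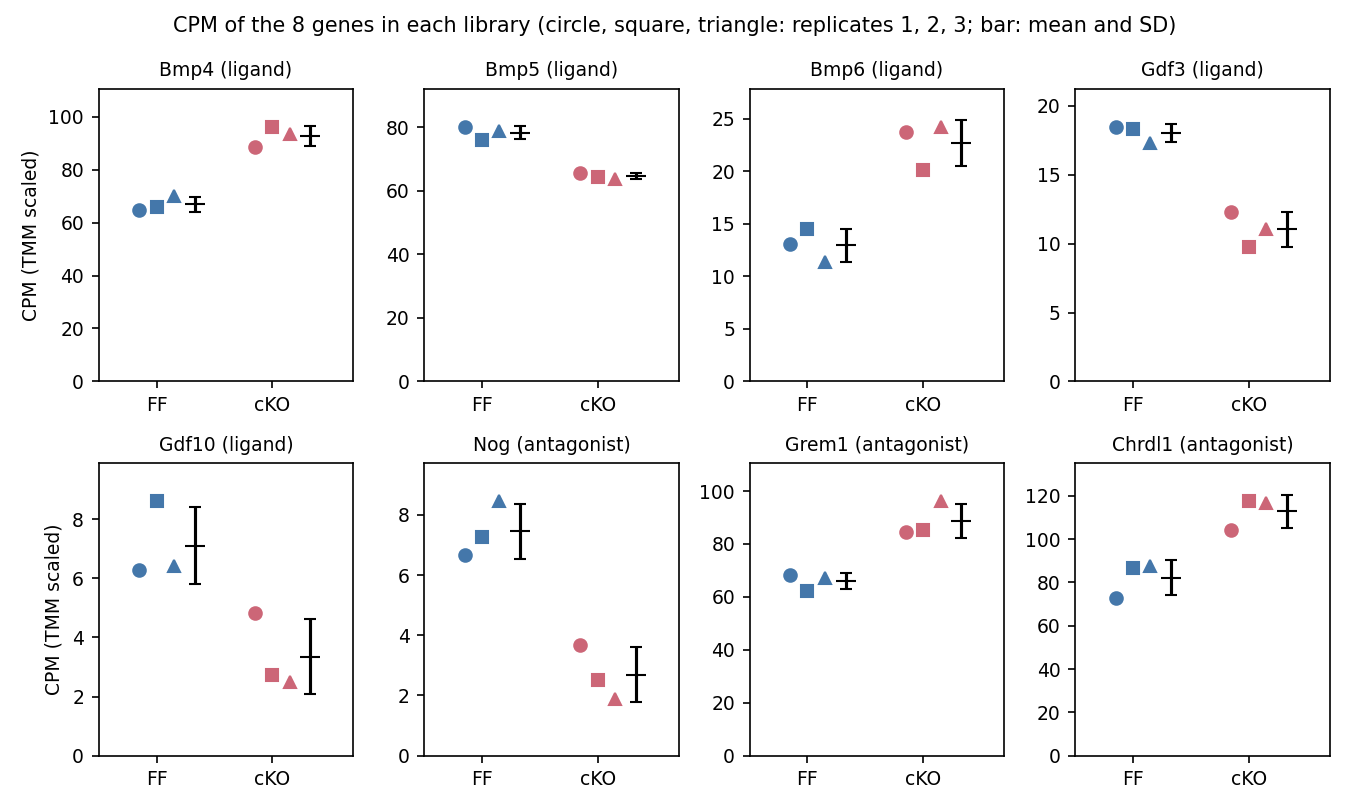
TMM-scaled CPM (vertical axes, from 0) of the 8 genes in each FF (blue) and cKO (red) library; circles, squares and triangles are replicates 1, 2 and 3, and black bars are the mean and SD of 3 libraries. The groups do not overlap in any panel, with Bmp4, Bmp6, Grem1 and Chrdl1 higher and Bmp5, Gdf3, Gdf10 and Nog lower in cKO.

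Levels between genes were compared in FPKM, which corrects for length. In FF the order was Bmp4 at 29.7 ± 1.61 FPKM (SD, n = 3), Chrdl1 at 19.0 ± 2.10, Bmp5 at 18.7 ± 0.280, Grem1 at 14.5 ± 0.526, Gdf3 at 7.77 ± 0.235, Nog at 4.02 ± 0.544, Bmp6 at 3.30 ± 0.412 and Gdf10 at 1.25 ± 0.246. Chrdl1 and Bmp5 did not differ beyond their spread, and neither did Nog and Bmp6. In cKO the order was Bmp4 at 40.8 ± 1.58 FPKM (SD, n = 3), Chrdl1 at 25.7 ± 1.36, Grem1 at 19.4 ± 1.26, Bmp5 at 15.3 ± 0.346, Bmp6 at 5.73 ± 0.539, Gdf3 at 4.71 ± 0.553, Nog at 1.44 ± 0.501 and Gdf10 at 0.581 ± 0.225. There the ranges of Bmp6 and Gdf3 overlapped. Grem1 stood below Bmp5 in every FF library and above it in every cKO library. Bmp6 stood below Nog within every FF library, though their FF ranges overlapped, and above it in every cKO library. Over all listed genes, Bmp4 lay at the 85.1 percentile of mean FPKM and Gdf10 at the 8.14 percentile.

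The ligand transcripts were dominated by Bmp4 and Bmp5. The pool was taken as 11 measured BMP and GDF genes, the 5 ligands above with Bmp2, Bmp3, Bmp8a, Gdf9, Gdf11 and Gdf15. Its summed FPKM was 74.97, 79.0 and 79.1 in FF and 85.1, 86.1 and 83.5 in cKO. Bmp4 made up 38.2 ± 1.23% of the pool in FF and 48.0 ± 1.67% in cKO (SD, n = 3). Bmp5 made up 24.1 ± 0.850% and 18.1 ± 0.339%, Gdf3 10.002 ± 0.452% and 5.55 ± 0.680%, and Bmp6 4.25 ± 0.529% and 6.76 ± 0.716%. Gdf10 was a minor part, at 1.60 ± 0.289% and 0.684 ± 0.263%. These shares were not tested, since the genes in them were chosen on the same contrast. By reads, without a correction for length, Bmp5 was the larger in FF (33.3% of the pool's CPM against 28.5% for Bmp4) and Bmp4 in cKO (36.9% against 25.7%).

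**Figure D2:**
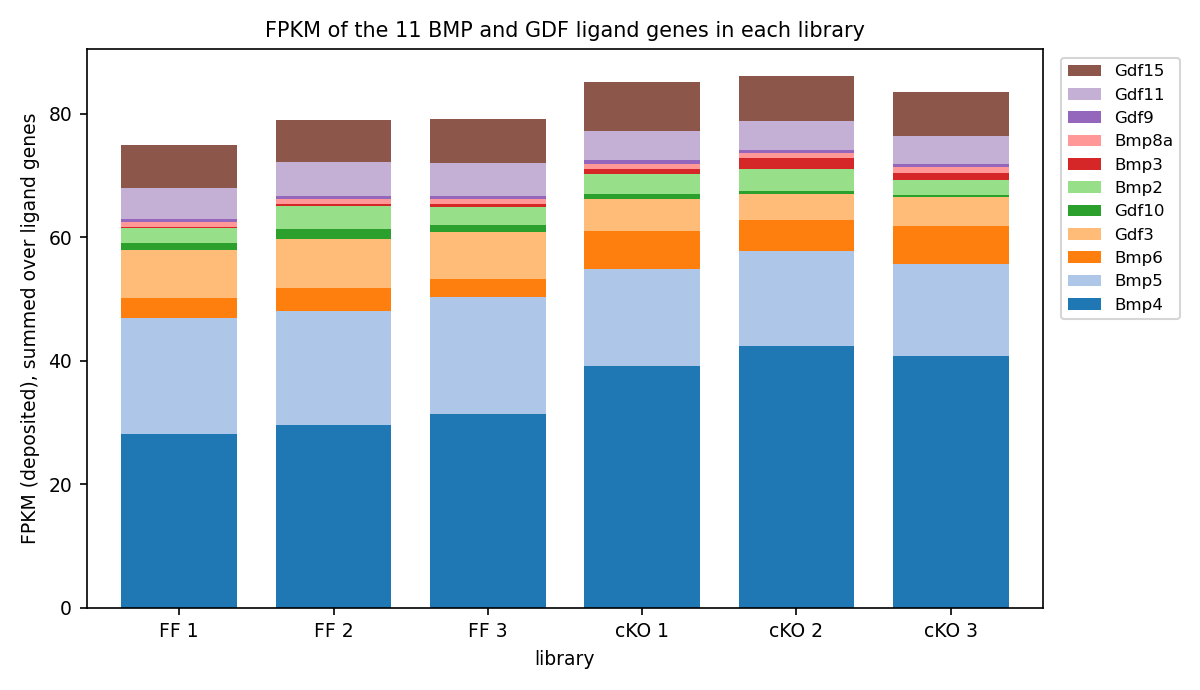
Deposited FPKM (vertical axis, from 0) of 11 BMP and GDF ligand genes stacked for each of the 6 libraries (horizontal axis). Bmp4, at the base of each bar, is taller in the 3 cKO libraries than in the 3 FF libraries, and the Bmp5 and Gdf3 layers are thinner.

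Noggin, gremlin and chordin-like 1 transcripts were a small part of the BMP and activin antagonists measured. A pool of 14 genes listed as BMP or activin antagonists summed to 492 ± 11.9 FPKM in FF and 548 ± 16.7 in cKO (SD, n = 3). Fstl1 made up 67.5% of the pool in FF and 68.1% in cKO, and Fst 11.5% and 11.9%. Nog held 0.815 ± 0.0911% of that pool in FF and 0.263 ± 0.0963% in cKO. Grem1 held 2.95 ± 0.124% and 3.54 ± 0.279%, and Chrdl1 held 3.86 ± 0.345% and 4.69 ± 0.165%. Fstl1 has functions beyond the BMP pathway, so the pool is a list of genes and not a measure of antagonism.

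Genes whose pattern over the 6 libraries lay nearest to each of the 8 were found by the root mean square difference of log2 CPM after centring each gene on its mean. The 10752 candidates had a mean of at least 5 CPM. Bmp4 was nearest to Cxcl12, the chemokine of marrow niche cells (difference 0.0145 log2 units), then to Clec7a (0.0351). Bmp5 was nearest to Col5a2 and Hsd17b7 (0.0214 and 0.0239), and Grem1 to Ccl6 and Il1r1 (0.0363 and 0.0520). Chrdl1 was nearest to Slc5a3 and Cd36 (0.05 and 0.0525), and Bmp6 to Dnaaf3 and Pdzrn4 (0.0788 and 0.0904). Gdf3 was nearest to Cabin1 and Hes1 (0.0417 and 0.0749). The noisier Gdf10 and Nog had more distant neighbours, Limch1 and Comp for Gdf10 (0.148 and 0.167) and Slc36a2 and Syt6 for Nog (0.107 and 0.182). Among the 8 themselves, Bmp4 and Chrdl1 were the closest pair (0.0717), followed by Bmp4 and Grem1 (0.0810). Bmp6 and Nog were the farthest apart (1.11). With 6 libraries in 2 groups, such nearness mainly reflects the size and direction of the group difference.

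None of the other ligands of the family was called by edgeR. Of 16 other BMP and GDF ligands 6 were measured, with 0 called and a median log2 fold change of 0.11, beside 0.00058 over all genes. Of these 6, 2 had an unadjusted edgeR p below 0.05 (Bmp3 and Gdf11). The share of all genes at that unadjusted level was not counted, so nothing is read from such counts here. DESeq2 called 1, Bmp3, beside 6.61% of all genes. Gdf15, a stress-induced ligand, had 11.9 ± 0.365 CPM in FF and 12.7 ± 0.532 in cKO, and Gdf11 had 23.3 ± 0.912 and 20.6 ± 0.403 (SD, n = 3; edgeR adjusted p = 0.648 and 0.208). In the ligand pool by FPKM these 2 genes held 9.05% and 6.76% in FF and 8.79% and 5.42% in cKO, above Gdf10 in both groups. Bmp3 lies outside the naming rule and was chosen after its values were seen. It had 0.810, 2.40 and 2.43 CPM in FF and 6.01, 11.8 and 7.90 CPM in cKO. Every cKO library was above every FF library, with a log2 fold change of 2.19 and a standard error of 0.504, but it was not called (edgeR adjusted p = 0.113). It was called by DESeq2 (adjusted p = 0.00166), limma-voom (0.0302), edgeR with the replicate number as a block (0.000150), limma on log2(FPKM + 1) (0.0260) and edgeR without FF replicate 1 (0.00819). Of 7 activin and nodal ligands 3 were measured and 0 called by edgeR or DESeq2, with 0 at an unadjusted edgeR p below 0.05. Inhba, the activin A subunit, and Inhbb had log2 fold changes of 0.15 and 0.12 (edgeR adjusted p = 0.702 and 0.511), and Inhba passed without cKO replicate 1 (0.0109).

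Other BMP and activin antagonists also differed in both directions. Of 18 listed, 11 were measured, with 3 called higher and 1 lower by edgeR, beside 2.1% and 2.74% of all genes. Their median log2 fold change was 0.085. DESeq2 called 5, beside 6.61% of all genes. These were the same 4 and Smoc2, a relative of Smoc1 named after its values were seen. Smoc2 had a log2 fold change of -0.53, its groups did not overlap, and it was not called by edgeR (adjusted p = 0.0774). Smoc1, a matrix protein that binds BMPs, rose from 26.1 ± 2.13 to 37.0 ± 2.57 CPM (SD, n = 3), which is 0.50 on the log2 scale (edgeR adjusted p = 0.00151). Fst, follistatin, which traps activins, rose by 0.25 on the log2 scale (edgeR adjusted p = 0.00949; 0.0667 without FF replicate 2 and 0.0541 without cKO replicate 2). Fstl1 rose by 0.18 (edgeR adjusted p = 0.0345), but missed the threshold when FF replicate 1, 2 or 3 was dropped (0.108, 0.181 and 0.0938) or cKO replicate 2 or 3 (0.129 and 0.0959). Nbl1, the DAN protein and a relative of gremlin, went from 26.2 ± 1.04 to 19.9 ± 0.945 CPM (SD, n = 3) and fell by 0.40 on the log2 scale (edgeR adjusted p = 0.0064).

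Of 15 receptors and co-receptors 12 were measured, with 2 called higher and 1 lower by edgeR, beside 2.1% and 2.74% of all genes. Their median log2 fold change was 0.010. Acvr2a, a type II receptor for activins and BMPs, averaged 18.0 ± 1.02 CPM over FF and 23.9 ± 1.86 over cKO libraries (SD, n = 3) and rose by 0.41 on the log2 scale (edgeR adjusted p = 0.0107). It missed the threshold when FF replicate 2 or 3 was dropped (0.0593 and 0.0588), or cKO replicate 2 or 3 (0.0574 and 0.0591). Tgfbr3, the co-receptor betaglycan, rose by 0.18 (edgeR adjusted p = 0.0285). With 1 library left out its log2 fold change was 0.15 to 0.20. The adjusted p missed the threshold when FF replicate 1, 2 or 3 was dropped (0.119, 0.136 and 0.0785), or cKO replicate 2 (0.0812), and in limma-voom (0.0542). Neo1, neogenin, a partner of the repulsive guidance co-receptors, fell by 0.29 (edgeR adjusted p = 0.00687).

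Among enzymes that mature ligands or cleave antagonists, 5 of 7 were measured and 2 were called lower by edgeR, beside 2.74% of all genes. The median log2 fold change of these enzymes was -0.25. Pcsk6, a proprotein convertase, averaged 18.3 ± 1.98 CPM over FF and 10.9 ± 2.55 over cKO libraries (SD, n = 3) and fell by 0.75 on the log2 scale (edgeR adjusted p = 0.0354). Dropping FF replicate 2, FF replicate 3 or cKO replicate 2 gave 0.126, 0.114 and 0.171. Bmp1, a metalloprotease that cleaves chordin and procollagen and no BMP despite its name, fell by 0.25 (edgeR adjusted p = 0.0101; 0.0618 without FF replicate 2, 0.0526 without cKO replicate 2 and 0.0526 without cKO replicate 3). Of 11 Smads and their regulators all were measured and 1 was called lower by edgeR, beside 2.74% of all genes. This was the co-repressor gene Skil, which fell by 0.31 (edgeR adjusted p = 0.0065). The median of that list was -0.082. On log2(FPKM + 1), Fst, Fstl1, Acvr2a, Tgfbr3 and Bmp1 did not pass (limma adjusted p = 0.0875, 0.0886, 0.0776, 0.174 and 0.0523). Of 15 BMP target genes 13 were measured, with 7 called lower and 0 higher by edgeR, beside 2.74% and 2.1% of all genes. The median log2 fold change of the 13, uncalled genes included, was -0.55. DESeq2 called 10 of the 13, beside 6.61% of all genes, and the groups did not overlap for 11, beside 22.5% of all genes. Id3, Bambi and Smad7 fell by 0.78, 0.73 and 0.43 (edgeR adjusted p = 1.14e-06, 0.000598 and 0.00355).

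**Figure D3:**
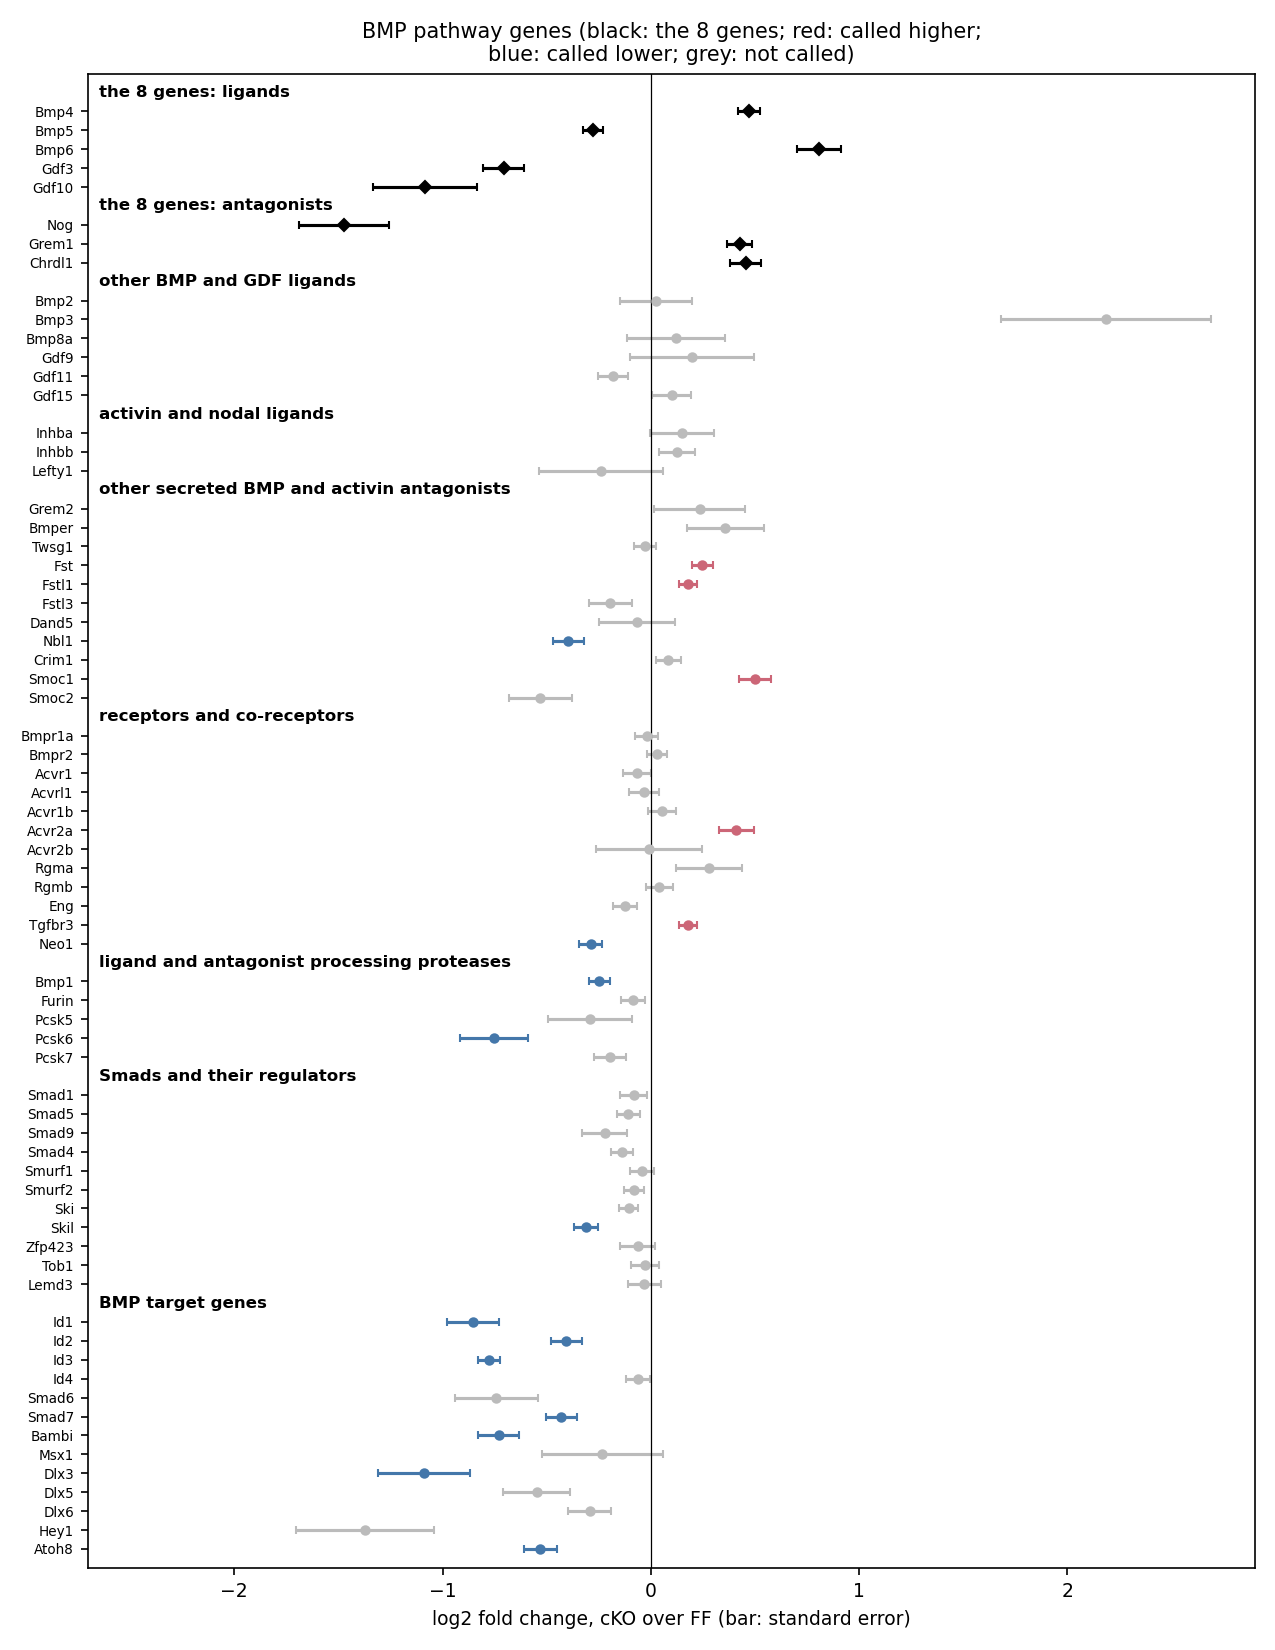
Log2 fold change of cKO over FF (horizontal axis, bars: standard error of the edgeR fit) for the 8 genes (black diamonds) and 61 other BMP pathway genes grouped by role (circles; red called higher, blue called lower, grey not called). Most receptors and Smads lie near 0, the target genes lie below 0, and the ligands and antagonists spread to both sides.

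**Figure D4:**
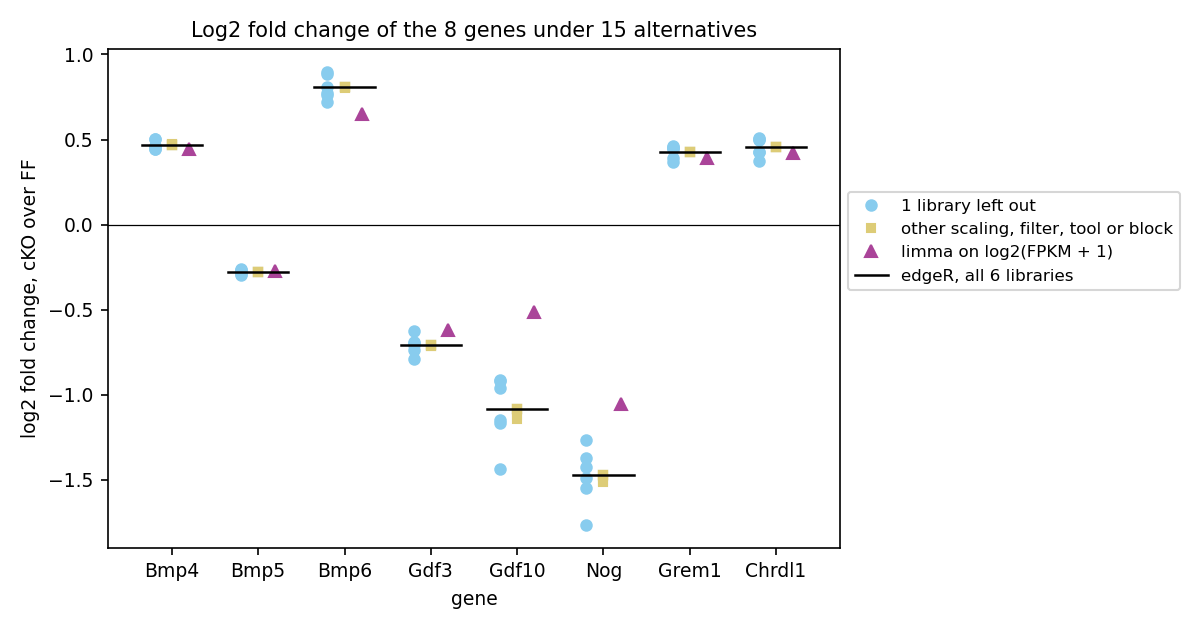
Log2 fold change of cKO over FF (vertical axis) for the 8 genes with all 6 libraries in edgeR (black line) and under 15 alternatives (circles: 1 library left out; squares: other scaling, filter, tool or block; triangles: limma on log2(FPKM + 1)). All values of a gene lie on the same side of 0, and Gdf10 and Nog spread the most.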

How the data were processed

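RNA-seq of 6 libraries, 3 FF and 3 cKO, was analysed from 1 deposited table. Per the file headers, the authors gave raw counts and FPKM per gene and library, and their log2 fold change, p-value and adjusted p-value for the comparison. Per the submitters' processing notes, reads were placed on mm10. For the aligner, counter and strand setting the sources used here name nothing. The 8 genes, the gene lists and the naming rule were chosen with earlier results of these data known.

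The test was edgeR 4.0.16 on the counts, run in R 4.3.3 (TMM, filterByExpr, robust quasi-likelihood F test, no covariates), checked on simulated data, at an adjusted p below 0.05 over 12830 genes; the filter removed none. The standard error is the coefficient over the square root of F. Alternatives covered scaling, filters, DESeq2 1.42.0, limma-voom and limma 3.58.1 on log2(FPKM + 1), the replicate number as a block and each library left out. Named beside the 8 were Rras2, called genes of each list or, with none called, the 2 of highest mean FPKM, up to 3 target genes, and the 2 nearest patterns per gene. Gene coordinates are from GENCODE. Figures were drawn with matplotlib 3.10.9. Precision is limited by 3 libraries a group and, for Nog and Gdf10, by low counts.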

Additional observations from a re-analysis of the deposited data

How the results depend on the processing

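The choice of the 8 genes fixed their direction, so the 15 alternatives bear on size alone. The runs with no filter and with at least 1 CPM in 3 libraries returned the main values unchanged, so they add no check. With 1 library left out the log2 fold change ranged from 0.44 to 0.50 for Bmp4, -0.30 to -0.26 for Bmp5, 0.72 to 0.90 for Bmp6, -0.79 to -0.63 for Gdf3, -1.44 to -0.91 for Gdf10, -1.77 to -1.27 for Nog, 0.37 to 0.46 for Grem1 and 0.37 to 0.51 for Chrdl1. On log2(FPKM + 1), where the added 1 shrinks the differences of low genes, Bmp6, Gdf10 and Nog had 0.65, -0.51 and -1.06. The count of genes called over all genes was 621, and 343 on log2(FPKM + 1), 848 in DESeq2 and 268 to 1166 with 1 library left out (268 without FF replicate 2 and 1166 without cKO replicate 1). Outside the 8 genes, 61 BMP pathway genes were measured, with 5 called higher and 12 lower, beside 2.1% and 2.74% of all genes. Without the target genes, 48 were measured, with 5 called higher and 5 lower. Of all 61, 2 were called higher and 10 lower on log2(FPKM + 1), beside 2.67% of all genes in either direction. With 1 library left out, 1 to 6 of the 61 were called higher and 9 to 17 lower. Beside them stood 2.09% to 9.09% of all genes called in either direction. As shares of CPM, Bmp4 made up 28.5% (FF) and 36.9% (cKO) of the ligand pool and Bmp5 33.3% and 25.7%. With 1 library left out, the FPKM shares were 37.5% to 38.6% and 47.4% to 49.0% for Bmp4, and 23.7% to 24.5% and 17.9% to 18.2% for Bmp5. Same-numbered libraries did not deviate together (correlations of -0.036, 0.067 and -0.13 over genes for replicates 1, 2 and 3), so the numbers were not taken as pairs. With the replicate block 669 genes were called.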
